A study of Homo sapiens with 8 samples.

Results

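The 10 genes described here mark cell lineages: PAX8, SOX17, RUNX2, SPP1, VIM, CDH1, CDH2, EPCAM, ELF3 and SNAI1. They are 10 of the 21123 genes in the deposited expression table, and each name matched a single gene. The 10 were selected on measured values: they were picked because their levels in untreated cells sat poorly with the osteosarcoma label, so those baseline levels are given as a description, without a test. The rule names no response to cisplatin or to the ZDHHC8 knockdown. The responses were tested, but the genes were proposed with earlier results of these data known, and part of the comparisons use the libraries in which the baseline was read, so these tests are not independent of the choice.

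RNA was sequenced from the human line 143B, labelled as osteosarcoma cells with bone as the tissue. The cells stably carried a control shRNA (shControl, genotype labelled WT) or an shRNA against ZDHHC8 (shZDHHC8), a palmitoyltransferase that attaches lipid to proteins, and were grown in DMEM with fetal serum and antibiotics. They were exposed for 48 h to vehicle (PBS) or to cisplatin, which forms platinum crosslinks in DNA. There were 4 groups of 2 libraries, which the labels call biological replicates, and every library carries batch 1. The sources used here give no cisplatin dose, number of shRNA sequences or number of clones. The series title concerns β-catenin palmitoylation, WNT signalling and cisplatin resistance.

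As background, epithelial cells hold together through E-cadherin, the product of CDH1, and through EPCAM, and keep that state with transcription factors such as ELF3. Mesenchymal cells carry the intermediate filament vimentin (VIM) and N-cadherin (CDH2), and the zinc finger repressor SNAI1 binds E-box motifs at CDH1 and silences it. The osteoblast lineage is set by RUNX2, and SPP1 encodes osteopontin, an acidic phosphoprotein of bone matrix that many other cells also secrete. PAX8 is a paired-box factor of thyroid, kidney and Müllerian duct epithelium, and SOX17 is an HMG-box factor of endoderm, of arterial endothelium and of Müllerian epithelium. Cells of an osteoblastic tumour would be looked up first by RUNX2, SP7, alkaline phosphatase, collagen I and the late matrix genes.

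Levels are FPKM (fragments scaled to transcript length and to the library's total), taken here as per length. The table names no unit, so every order or ratio of levels between genes rests on that reading. Levels are given for replicates 1 and 2 and as mean ± SD (n = 2). A log2 change is the difference between group means of log2(FPKM + 1), a scale on which low genes appear to change less than they do, with the standard error and the adjusted p from limma. A gene was called higher or lower at an adjusted p below 0.05 over the 13495 genes that reached 1 FPKM in 2 or more libraries. CDH1 stayed below 1 FPKM in all 8 libraries and was not among them, which leaves 9 tested genes. The depth behind an FPKM value is unknown, so precision rests on the replicates. P-values measure the spread between these libraries, which may be technical. In bulk RNA, fewer cells of a type and less RNA per cell cannot be told apart.

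The targeted gene was lower under knockdown. ZDHHC8 averaged 23.4 FPKM in shControl and 12.1 FPKM in shZDHHC8 cells under vehicle (log2 change −0.92, limma adjusted p = 0.000472), and 32.6 against 22.9 FPKM under cisplatin (−0.49, limma adjusted p = 0.0102). The second call was lost without shZDHHC8 cisplatin replicate 2 (largest limma adjusted p over the alternatives 0.0558). Cisplatin raised ZDHHC8 in shControl cells (0.46, limma adjusted p = 0.0136) and in shZDHHC8 cells (0.89, limma adjusted p = 0.000717). Its mean in shZDHHC8 cisplatin, 22.9 FPKM, was thus near the 23.4 FPKM of shControl vehicle. Under cisplatin the knockdown is therefore a difference from shControl cisplatin, and not from untreated shControl cells. Column totals were 361060 to 391016. Across genes, log2 values correlated at r = 0.995 to 0.996 between replicates and at 0.939 to 0.978 between libraries of different groups. The comparisons share libraries with each other: both cisplatin comparisons and both knockdown comparisons draw on the same 4 groups, and 2 of the 4 use the shControl vehicle libraries in which the baseline was read.

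In untreated shControl cells the 10 genes spanned 1761 ± 39.8 FPKM for VIM to 0.344 ± 0.0692 FPKM for CDH1. The order of mean levels was VIM, PAX8, SPP1, SOX17, CDH2, ELF3, RUNX2, EPCAM, SNAI1 and CDH1, and no neighbours in that order overlapped between replicates. Among tested protein-coding genes PAX8 stood at percentile 98.3 in both libraries, SPP1 at 97.5 and 97.2, and RUNX2 at 56.0 and 61.7. PAX8 was 16.2 ± 2.19 times the level of RUNX2, and CDH2 was 63.0 ± 13.5 times that of CDH1. Within this baseline a mesenchymal filament gene, a Müllerian and kidney lineage factor and a bone matrix gene were thus the most abundant of the set.

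**Figure D1:**
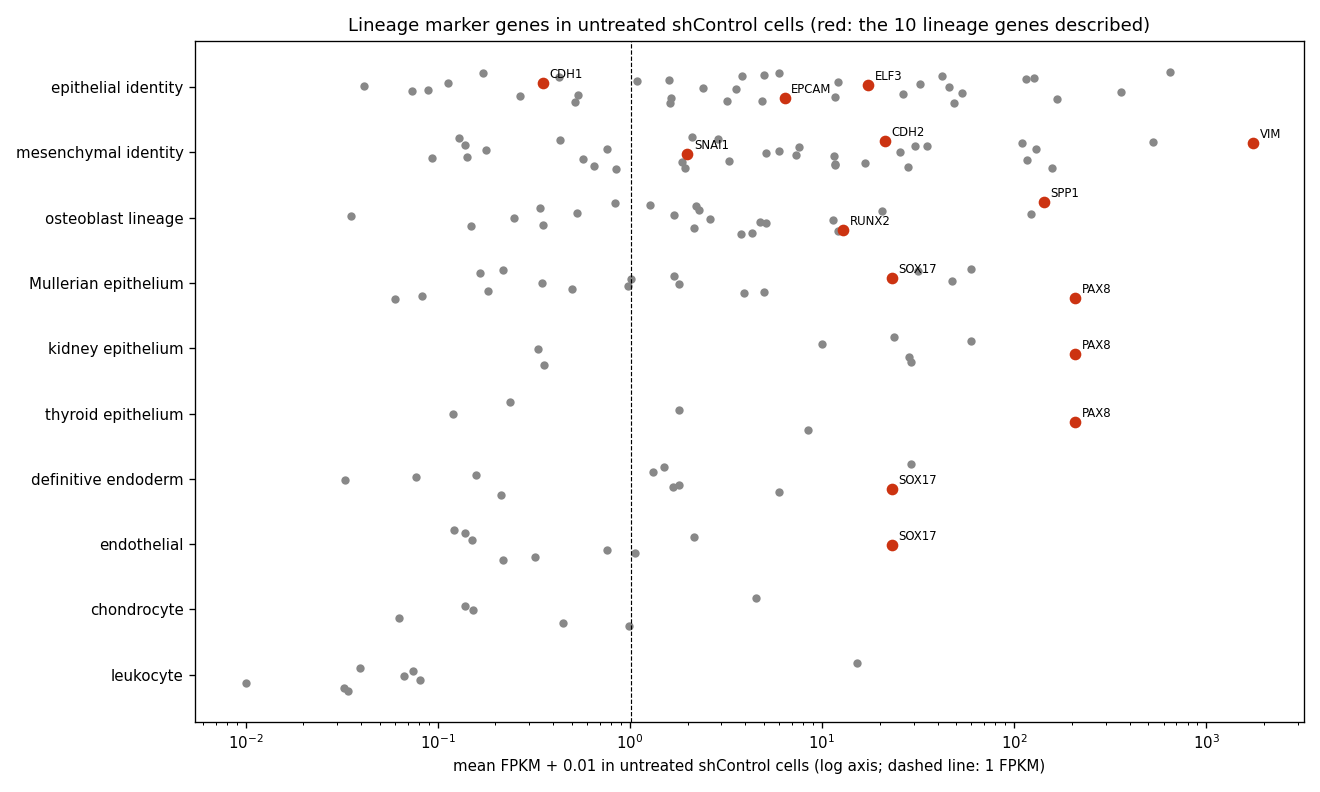
Mean FPKM in untreated shControl cells on a logarithmic axis with 0.01 added, for the 10 genes (red, named) and for the other matched genes of each marker list (grey); each point is a gene's mean of 2 libraries and the dashed line is 1 FPKM. Among the 10 genes VIM and PAX8 lie farthest right, and CDH1 at 0.344 FPKM lies left of the line.

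The other osteoblast markers covered a wide range of levels. Of 32 further osteoblast genes on the list used, 21 were matched, and 14 reached 1 FPKM in both untreated shControl libraries. Collagen I was at 5.08 FPKM for COL1A1 and 0.826 FPKM for COL1A2, while the matrix genes BGLAP (osteocalcin) and IBSP (bone sialoprotein) were at 0.138 and 0.332 FPKM. SPARC (osteonectin) stood at 4.74 FPKM, and CBFB, the partner subunit of RUNX2, at 20.5 FPKM. ATF4, a stress-response factor that osteoblasts also need, was at 122 FPKM and the homeobox factor MSX1 at 11.3 FPKM. SP7, ALPL, DLX5 and DMP1 were not analysed here. Of the defining osteoblast markers, RUNX2 and SPP1 were thus present, collagen I was low and the late matrix genes were below 1 FPKM.

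Keratins of simple epithelium were abundant in the same libraries. KRT8 averaged 649 FPKM, KRT7 362 FPKM and KRT18 168 FPKM, and of 33 further epithelial genes matched, 13 were at 10 FPKM or more in both libraries. The epithelial splicing regulator ESRP1, by contrast, was at 0.0791 FPKM and RAB25, a GTPase of epithelial recycling endosomes, at 0.0314 FPKM. Mesenchymal genes were abundant too, with S100A4 at 532 FPKM, FN1 (fibronectin) at 110 FPKM and the repressors SNAI2 and ZEB1 at 28.0 and 11.5 FPKM. Both programmes were thus partly present, without CDH1.

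Genes that accompany PAX8 and SOX17 in other tissues were present in part. LHX1 (59.8 FPKM) and MECOM (47.4 FPKM), transcription regulators of kidney and Müllerian development, were high, as were the kidney cadherin CDH16 (28.4 FPKM) and the folate receptor FOLR1 (31.5 FPKM). WT1 (0.339 FPKM), MUC16 (0.157 FPKM) and WFDC2 (0.21 FPKM) were low, as was thyroglobulin (TG, 0.11 FPKM). Of 8 matched endothelial genes 2 reached 1 FPKM in both libraries and none reached 10 FPKM. The data give no single lineage for these cells, and they are called here the cells labelled 143B.

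Of the leukocyte list, CD68, a lysosomal glycoprotein, was the gene at 1 FPKM or more, and CD3E was at 0 in all 8 libraries. The summed level of the 8 matched leukocyte genes was 14.6 to 16.3 FPKM in both shControl groups, 41.7 to 46.2 FPKM in shZDHHC8 vehicle and 61.0 to 70.0 FPKM in shZDHHC8 cisplatin, nearly all of it CD68, and the part of such cells in the results was not tested. PTPRC (CD45) stayed between 0.0238 and 0.140 FPKM in every library.

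Across the 9 tested genes, cisplatin in shControl cells moved 7, of which 1 was higher and 6 were lower. Over all tested genes 62.2% were called in that comparison, 36.8% higher and 25.4% lower. The reference libraries of this comparison are those whose levels chose the genes, so nothing is read from the excess of falls. Knockdown in vehicle moved all 9, of which 3 were higher and 6 lower, against a background of 51.7% called, 26.7% higher and 25.0% lower. Its reference libraries are the same, so nothing is read from that excess either.

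In shZDHHC8 cells cisplatin moved 6 of the 9, with 2 higher and 4 lower, where 50.5% of all genes were called, 36.9% higher and 13.6% lower. Knockdown under cisplatin moved 7, with 4 higher and 3 lower, close to the background of 61.4% called, 33.8% higher and 27.6% lower. The response to cisplatin differed between shControl and shZDHHC8 cells (the interaction) for 5 genes, 4 of them positive and 1 negative. Over all genes 30.4% were called, 17.0% positive and 13.4% negative. The interaction also draws on the shControl vehicle libraries, so nothing is read from that excess. Since a large share of all genes moved in every comparison, a call alone sets no gene of the set apart.

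**Figure D2:**
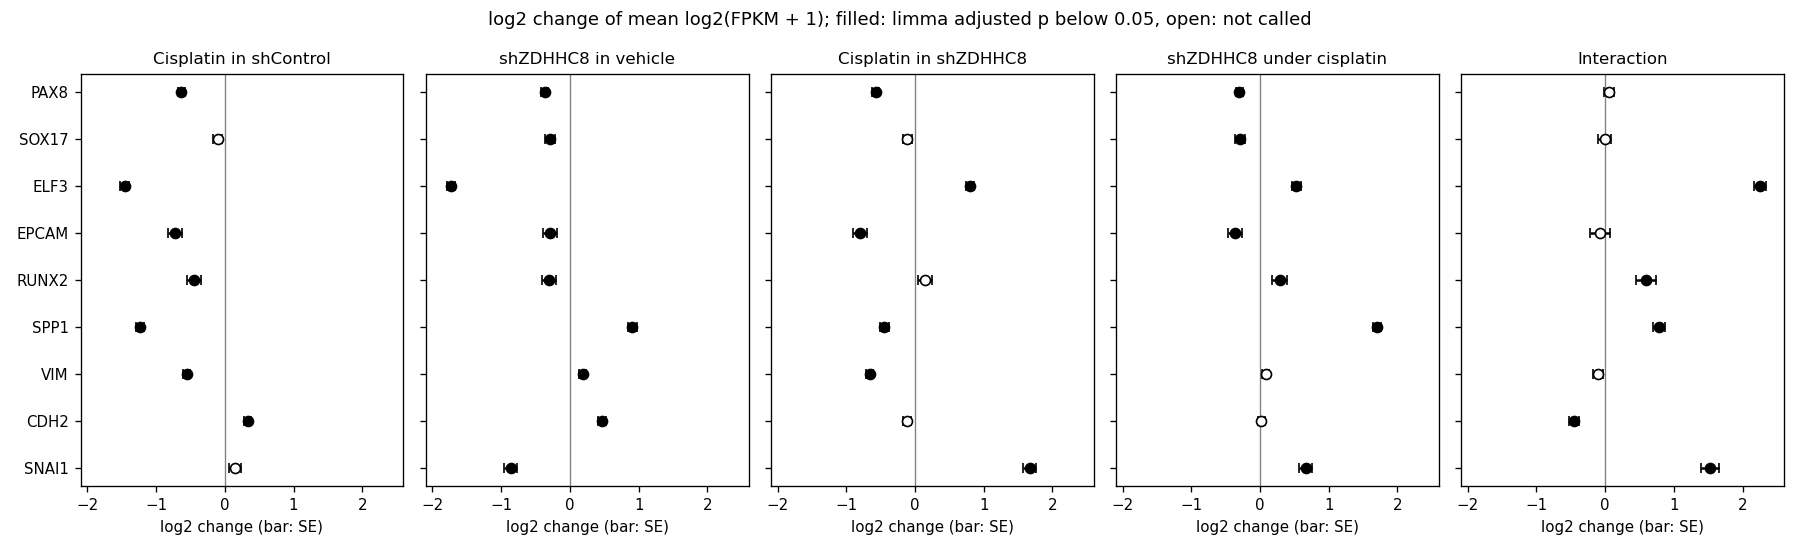
Log2 changes of log2(FPKM + 1) with standard errors for the 9 tested genes, with a panel for each cisplatin comparison, each knockdown comparison and the interaction; filled points were called by limma and open points were not. ELF3 changes sign between shControl and shZDHHC8 cells and SNAI1 between vehicle and cisplatin, while PAX8 and EPCAM are lower in both cisplatin and both knockdown panels.

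The values are as deposited, and the scale of a library matters for small changes. The median log2 change of all tested genes was 0.13 for cisplatin in shZDHHC8 cells and 0.00074 after median-of-ratios scaling. That scaling turned the split of all calls from 4976 higher and 1841 lower to 2891 and 3113 in that comparison, and from 4967 and 3421 to 4054 and 4346 for cisplatin in shControl cells. For knockdown under cisplatin, scaling to a common total turned 4561 higher and 3720 lower into 3718 and 4613.

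PAX8 was lower after either treatment, and lowest after both. It lies at chr2:113215997-113278921 on the minus strand (hg38, ENSG00000125618). Its FPKM was 209 and 206 in shControl vehicle, 167 and 155 in shZDHHC8 vehicle, 129 and 138 in shControl cisplatin, and 108 and 107 in shZDHHC8 cisplatin. No groups overlapped. Cisplatin changed it by −0.64 ± 0.051 on the log2 scale (SE; limma adjusted p = 1.13e-05) in shControl cells and −0.57 (limma adjusted p = 6.27e-05) in shZDHHC8 cells, ratios of 0.642 and 0.669. Knockdown changed it by −0.37 (limma adjusted p = 0.000445) in vehicle and −0.30 (limma adjusted p = 0.000922) under cisplatin. The difference between the cisplatin responses was 0.062 ± 0.073 (limma adjusted p = 0.549) and was not called.

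The sources used here do not say whether the libraries kept strand, so reads of genes on opposite strands cannot be told apart. PAX8-AS1, which overlaps PAX8, averaged 1.84 FPKM in shControl vehicle, 0.856 FPKM in shZDHHC8 vehicle, 2.72 FPKM in shControl cisplatin and 3.46 FPKM in shZDHHC8 cisplatin. It fell with knockdown in vehicle, as PAX8 did (−0.61, limma adjusted p = 0.0219), and rose with cisplatin in shZDHHC8 cells, where PAX8 fell (1.24, limma adjusted p = 0.000741). It was not called for cisplatin in shControl cells (0.39, limma adjusted p = 0.0952) or for knockdown under cisplatin (0.24, limma adjusted p = 0.275), where its groups overlapped.

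SOX17 changed less. It lies at chr8:54457935-54460892 on the plus strand (hg38, ENSG00000164736). Its FPKM was 24.7 and 21.5 in shControl vehicle, 19.3 and 18.2 in shZDHHC8 vehicle, 21.8 and 20.9 in shControl cisplatin, and 17.1 and 17.4 in shZDHHC8 cisplatin. All 4 shZDHHC8 libraries were below all 4 shControl libraries, while the shControl vehicle and cisplatin groups overlapped. Knockdown gave −0.29 in vehicle (limma adjusted p = 0.00866) and −0.29 under cisplatin (limma adjusted p = 0.00605). The vehicle call was lost without shControl vehicle replicate 1 (−0.19, limma adjusted p = 0.0648) and without shZDHHC8 vehicle replicate 2 (−0.25, limma adjusted p = 0.0523).

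The cisplatin changes of SOX17 were −0.10 ± 0.070 in shControl cells (limma adjusted p = 0.226) and −0.11 in shZDHHC8 cells (limma adjusted p = 0.215), and neither was called. Both were called lower after median-of-ratios scaling, at −0.21 (limma adjusted p = 0.0289) and −0.26 (limma adjusted p = 0.0163). Without shControl vehicle replicate 2 the first was called too (−0.20, limma adjusted p = 0.0432).

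The lists of other Müllerian and kidney genes were mixed. Of all tested genes 25.4% were called lower and 36.8% higher with cisplatin in shControl cells, and 25.0% and 26.7% with knockdown in vehicle. With cisplatin in shZDHHC8 cells these shares were 13.6% and 36.9%, and with knockdown under cisplatin 27.6% and 33.8%. Of 9 other tested Müllerian genes 5 were lower and 1 higher with cisplatin in shControl cells, and 5 were lower and none higher with knockdown in vehicle. MECOM (log2 change −0.75, limma adjusted p = 6.86e-06) fell with cisplatin and FOLR1 (−1.73, limma adjusted p = 2.30e-07) fell with knockdown. Of 6 other tested kidney genes 5 were lower with cisplatin in shControl cells, median −0.94 beside 0.070 for all genes, and 4 were lower and 1 higher with knockdown in vehicle. CDH16 fell in those comparisons, by −0.94 (limma adjusted p = 2.07e-05) and −1.69 (limma adjusted p = 1.96e-06). In shZDHHC8 cells cisplatin lowered 4 of the 6 kidney genes and 2 of the 9 Müllerian genes, and raised 1 of each; after median-of-ratios scaling 5 of the Müllerian genes were called there, 4 of them lower. With knockdown under cisplatin 2 kidney genes were higher and 2 lower (median −0.0022), and 1 Müllerian gene was higher and 2 were lower (median −0.10), with 1 Müllerian call without shZDHHC8 cisplatin replicate 1.

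**Figure D3:**
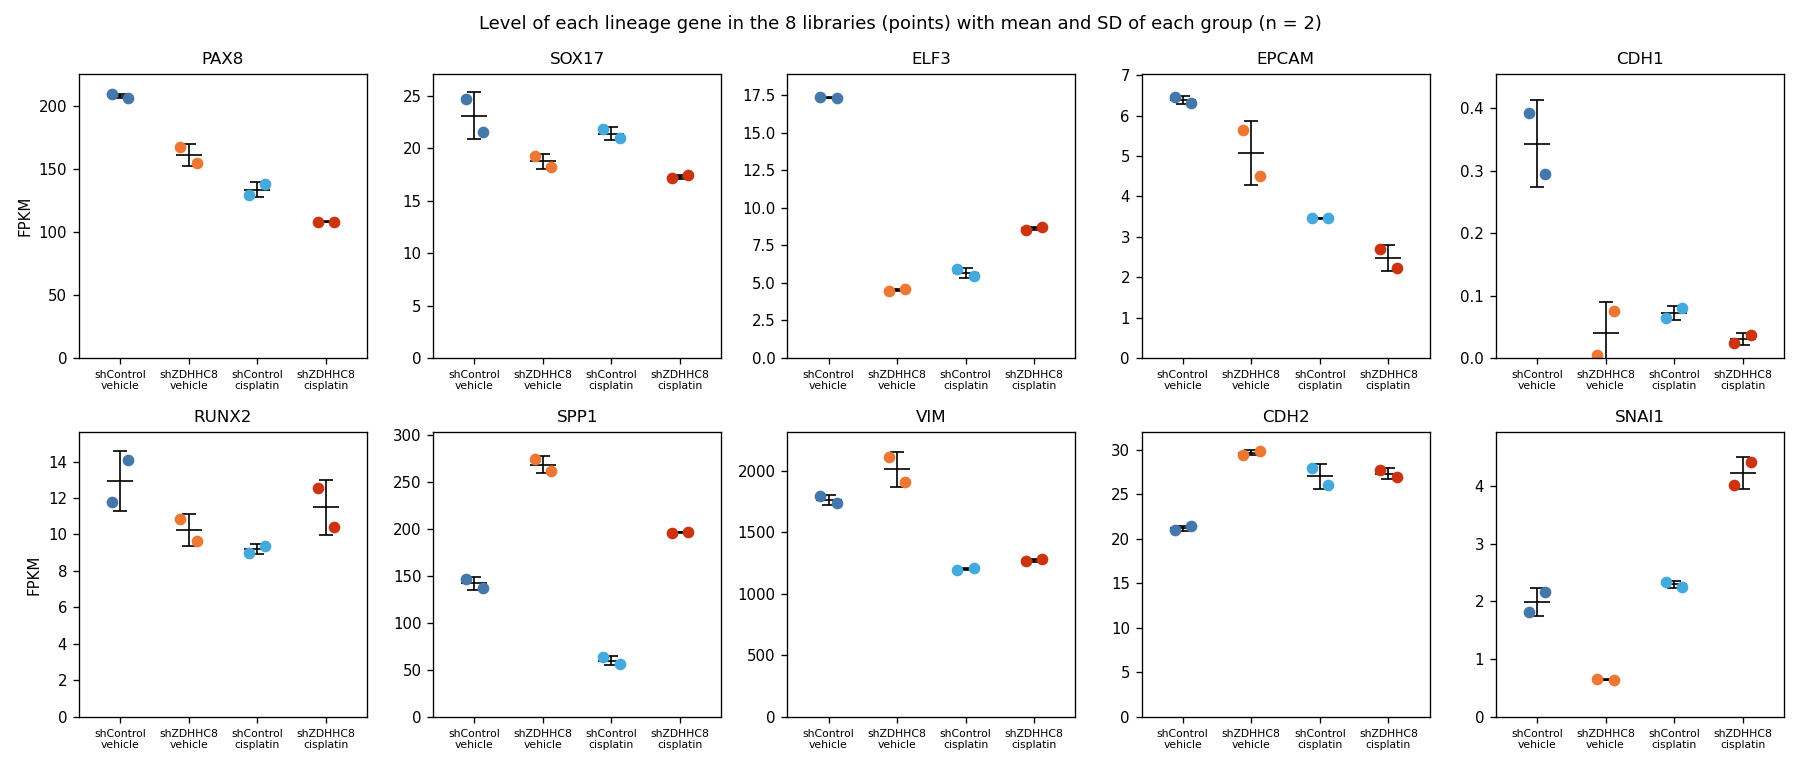
FPKM of each of the 10 genes in the 8 libraries, in a panel per gene with axes from 0; points are libraries, horizontal lines are means and error bars SD (n = 2), with the lower bar of CDH1 in shZDHHC8 vehicle ending at 0. PAX8 and EPCAM step down across the groups, SPP1 rises with knockdown, and ELF3 is highest in shControl vehicle at 17.3 FPKM.

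ELF3, an ETS factor of epithelial cells, gave the sharpest reversal. It lies at chr1:202007945-202017183 on the plus strand (hg38, ENSG00000163435). Its FPKM was 17.4 and 17.3 in shControl vehicle, 4.47 and 4.59 in shZDHHC8 vehicle, 5.92 and 5.43 in shControl cisplatin, and 8.55 and 8.69 in shZDHHC8 cisplatin. The untreated shControl libraries were highest, those with either cisplatin or knockdown alone were lowest, the combination lay between, and no groups overlapped.

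Cisplatin changed ELF3 by −1.46 ± 0.062 on the log2 scale (SE, limma adjusted p = 4.42e-07) in shControl cells, a ratio of 0.327, and by 0.80 (limma adjusted p = 3.49e-05) in shZDHHC8 cells, a ratio of 1.902. Knockdown changed it by −1.73 (limma adjusted p = 3.44e-07) in vehicle and by 0.53 (limma adjusted p = 0.000116) under cisplatin. The difference between the cisplatin responses was 2.26 ± 0.088 (limma adjusted p = 8.31e-06). The overlapping ELF3-AS1 and AL691482.3 stayed at or below group means of 0.477 and 0.228 FPKM.

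The promoter of ELF3 is shown because SNAI1, a repressor that binds E-boxes, was called in the same direction as ELF3 for knockdown in vehicle, for knockdown under cisplatin and for cisplatin in shZDHHC8 cells. The sequence is RefSeq's for GRCh38.p14, chr1:202010337-202010636 on the plus strand, from 250 bases before the start to 50 after it. This stretch lies inside the span given above for ELF3, so its start is not the first base of that span. Which start the measured transcripts used was not tested. Capitals mark the E-box letters CAGGTG or, on the other strand, CACCTG.
ELF3: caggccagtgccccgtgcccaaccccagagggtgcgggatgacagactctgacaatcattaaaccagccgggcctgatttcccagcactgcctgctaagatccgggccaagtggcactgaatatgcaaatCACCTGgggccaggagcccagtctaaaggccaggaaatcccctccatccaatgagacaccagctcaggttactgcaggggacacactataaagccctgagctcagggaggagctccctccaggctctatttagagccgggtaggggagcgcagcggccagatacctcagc
CACCTG stands once, at −120 to −115, and 20.6% of all 35116 RefSeq promoters of this length hold the motif on either strand. A match is a description of letters and not a binding site.

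EPCAM, an epithelial adhesion molecule, fell with each treatment. It lies at chr2:47345158-47387601 on the plus strand (hg38, ENSG00000119888). Its FPKM was 6.46 and 6.32 in shControl vehicle, 5.64 and 4.52 in shZDHHC8 vehicle, 3.46 and 3.46 in shControl cisplatin, and 2.70 and 2.24 in shZDHHC8 cisplatin, and no groups overlapped. Cisplatin changed it by −0.73 ± 0.10 (limma adjusted p = 0.000286) in shControl cells and −0.81 (limma adjusted p = 0.000353) in shZDHHC8 cells. The knockdown changes were smaller and rested on single libraries. In vehicle the change was −0.29 (limma adjusted p = 0.0421), and it was called under 7 of 15 alternatives. Without shZDHHC8 vehicle replicate 2 it was −0.16 (limma adjusted p = 0.257), and it was also lost without either shControl vehicle library (largest limma adjusted p = 0.138) or either shControl cisplatin library (0.0546 each). Under cisplatin the change was −0.36 (limma adjusted p = 0.0132), and −0.27 (limma adjusted p = 0.0937) without shZDHHC8 cisplatin replicate 2.

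CDH1 was barely detected. It lies at chr16:68737292-68835541 on the plus strand (hg38, ENSG00000039068). Its FPKM was 0.392 and 0.295 in shControl vehicle, 0.00565 and 0.0752 in shZDHHC8 vehicle, 0.0644 and 0.0797 in shControl cisplatin, and 0.0238 and 0.0372 in shZDHHC8 cisplatin. The untreated shControl libraries were the highest. It did not pass the filter on low values. With no such filter, limma gave −0.32 (adjusted p = 0.00288) for cisplatin in shControl cells, −0.37 (adjusted p = 0.0024) for knockdown in vehicle, −0.013 (adjusted p = 0.891) for cisplatin in shZDHHC8 cells and −0.057 (adjusted p = 0.452) for knockdown under cisplatin. The interaction was 0.31 (limma adjusted p = 0.0368) with no filter. The number of reads behind such low values is unknown.

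The other epithelial genes moved in both directions. Over all tested genes 36.8% were called higher and 25.4% lower with cisplatin in shControl cells, and 26.7% and 25.0% with knockdown in vehicle. With cisplatin in shZDHHC8 cells these shares were 36.9% and 13.6%, and with knockdown under cisplatin 33.8% and 27.6%. Of 23 other tested epithelial genes, cisplatin raised 7 and lowered 12 in shControl cells (median −0.27 beside 0.070), and knockdown raised 3 and lowered 12 in vehicle (median −0.27 beside 0.015). KRT19 fell from 115 to 50.4 FPKM with cisplatin (−1.17, limma adjusted p = 3.76e-07). KLF5, a factor of basal epithelium, moved the other way with cisplatin in shControl cells, by 0.95 (limma adjusted p = 1.66e-06). Knockdown lowered KLF5, with −0.81 in vehicle (limma adjusted p = 7.70e-06) and −1.29 under cisplatin (limma adjusted p = 6.81e-07). The tight junction gene CLDN4 rose with knockdown in vehicle by 1.64 (limma adjusted p = 4.76e-06).

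In shZDHHC8 cells cisplatin raised 6 and lowered 7 of these 23, with a median of 0.023 that became −0.13 after median-of-ratios scaling, with 5 higher and 11 lower. Under cisplatin, knockdown raised 6 and lowered 7 (median −0.036), which became 5 and 11 (median −0.13) with a common total and 5 and 10 (median −0.11) with median-of-ratios scaling.

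RUNX2, the runt-domain factor of osteoblasts, was near the middle of expressed genes and moved modestly. It lies at chr6:45328157-45664349 on the plus strand (hg38, ENSG00000124813). Its FPKM was 11.8 and 14.1 in shControl vehicle, 10.9 and 9.64 in shZDHHC8 vehicle, 9.0 and 9.39 in shControl cisplatin, and 12.6 and 10.4 in shZDHHC8 cisplatin. The untreated shControl libraries were above the shControl cisplatin libraries, and the shZDHHC8 groups overlapped. Cisplatin gave −0.45 ± 0.11 (limma adjusted p = 0.00569) in shControl cells and 0.15 (limma adjusted p = 0.277) in shZDHHC8 cells. The difference was 0.59 ± 0.15 (limma adjusted p = 0.0189).

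Single libraries decided several RUNX2 calls. The interaction was lost without shControl vehicle replicate 2 (limma adjusted p = 0.0607), shZDHHC8 vehicle replicate 2 (0.0596), shControl cisplatin replicate 1 (0.0508) or shZDHHC8 cisplatin replicate 1 (0.0621). Knockdown in vehicle gave −0.31 (limma adjusted p = 0.0392), but −0.19 (0.243) without shControl vehicle replicate 2 and −0.23 (0.199) without shZDHHC8 vehicle replicate 2. Knockdown under cisplatin gave 0.29 (limma adjusted p = 0.0423), and it was lost after scaling to a common total (0.20, 0.141), after median-of-ratios scaling (0.22, 0.106), and without shControl cisplatin replicate 1 (0.26, 0.141), shControl cisplatin replicate 2 (0.31, 0.0852) or shZDHHC8 cisplatin replicate 1 (0.16, 0.271). SUPT3H and AL096865.1 overlap RUNX2 on the other strand and averaged 1.04 to 3.71 and 0.535 to 1.52 FPKM by group.

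SPP1 moved with both factors and by more. It lies at chr4:87975650-87983426 on the plus strand (hg38, ENSG00000118785). Its FPKM was 147 and 138 in shControl vehicle, 275 and 262 in shZDHHC8 vehicle, 63.4 and 56.5 in shControl cisplatin, and 196 and 197 in shZDHHC8 cisplatin, and no groups overlapped. Cisplatin changed it by −1.24 ± 0.062 (limma adjusted p = 8.49e-07) in shControl cells and by −0.45 (limma adjusted p = 0.000526) in shZDHHC8 cells. Knockdown raised it by 0.91 (limma adjusted p = 8.31e-06) in vehicle and by 1.70 (limma adjusted p = 3.02e-07) under cisplatin, a ratio of 3.28. The difference between the cisplatin responses was 0.79 ± 0.087 (limma adjusted p = 0.000501). In both shZDHHC8 groups SPP1 stood above PAX8, where PAX8 stood above SPP1 in both shControl groups.

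The 2 promoters printed here, of RUNX2 and SPP1, both hold the runt-domain motif that RUNX2 binds. They are shown for that reason, and because SPP1 is known as a RUNX2 target in osteoblasts. They are RefSeq's for GRCh38.p14, chr6:45328080-45328379 and chr4:87975464-87975763, both on the plus strand, and the first of 2 RefSeq promoters is printed for RUNX2. Capitals mark ACCACA, which is TGTGGT on the other strand.
RUNX2: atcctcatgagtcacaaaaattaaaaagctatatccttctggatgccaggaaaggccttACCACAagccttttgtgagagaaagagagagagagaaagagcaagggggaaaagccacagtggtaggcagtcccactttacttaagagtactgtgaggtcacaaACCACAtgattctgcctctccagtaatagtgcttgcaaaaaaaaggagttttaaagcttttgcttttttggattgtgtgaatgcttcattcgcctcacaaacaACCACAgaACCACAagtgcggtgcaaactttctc
SPP1: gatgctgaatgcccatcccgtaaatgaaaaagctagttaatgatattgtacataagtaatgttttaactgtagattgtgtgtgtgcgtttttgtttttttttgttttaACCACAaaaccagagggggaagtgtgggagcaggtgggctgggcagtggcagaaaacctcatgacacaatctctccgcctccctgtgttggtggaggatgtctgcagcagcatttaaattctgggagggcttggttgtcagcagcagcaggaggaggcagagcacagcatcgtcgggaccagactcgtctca
The printed RUNX2 promoter holds 4 matches, at −191, −87, 17 and 25 from the start, and the second RUNX2 promoter holds 0. SPP1 holds 1, at −142, while 13.1% of all promoters hold at least 1. SPP1 also holds CAGGTG at −112. VIM holds TGTGGT at −96. RUNX2 and SPP1 were both called lower with cisplatin in shControl cells and both called higher with knockdown under cisplatin. They moved in opposite directions with knockdown in vehicle. The RUNX2 knockdown calls were lost under some alternatives, as given above. Whether RUNX2 acts on SPP1 was not tested. PAX8 and CDH2 have promoters in the same tables, and SOX17, CDH1, EPCAM and SNAI1 are named here without one.

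Of 14 other tested osteoblast genes 4 were higher and 5 lower with cisplatin in shControl cells, 3 higher and 5 lower with knockdown in vehicle, 4 and 5 with cisplatin in shZDHHC8 cells, and 4 and 4 with knockdown under cisplatin. Over all tested genes 62.2%, 51.7%, 50.5% and 61.4% were called in these comparisons, with median changes of 0.070, 0.015, 0.13 and 0.042. The medians of the 14 genes were −0.18, −0.12, 0.00090 and −0.060. The third became −0.11 after median-of-ratios scaling, with 1 higher and 5 lower. Knockdown under cisplatin became 3 higher and 6 lower with a common total (median −0.12) and with median-of-ratios scaling (median −0.10). The 9 calls for cisplatin in shZDHHC8 cells became 4 without shZDHHC8 vehicle replicate 2 and 4 without shZDHHC8 cisplatin replicate 1. COL1A1, a collagen I chain, fell from 5.08 to 1.73 FPKM with cisplatin in shControl cells (−1.16, limma adjusted p = 2.34e-05) and to 2.38 FPKM with knockdown (−0.85, limma adjusted p = 0.000223). Its difference between the cisplatin responses was 1.48 (limma adjusted p = 0.000335). SPARC rose with knockdown in vehicle (0.71, limma adjusted p = 0.000404) and under cisplatin (1.19, limma adjusted p = 1.65e-05). COL1A1 and SPP1 thus moved in opposite directions with knockdown in vehicle. Under cisplatin, knockdown raised COL1A1 (0.62, limma adjusted p = 0.000963), as it did SPP1. COL1A2, the other collagen I chain, was below the filter and not tested.

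VIM fell with cisplatin. It lies at chr10:17228241-17237593 on the plus strand (hg38, ENSG00000026025). Its FPKM was 1789 and 1733 in shControl vehicle, 2110 and 1907 in shZDHHC8 vehicle, 1194 and 1206 in shControl cisplatin, and 1263 and 1281 in shZDHHC8 cisplatin. All 4 cisplatin libraries were below all 4 vehicle libraries. Cisplatin gave −0.55 ± 0.053 (limma adjusted p = 2.84e-05) in shControl cells and −0.66 (limma adjusted p = 3.89e-05) in shZDHHC8 cells, and the difference of −0.10 ± 0.074 (limma adjusted p = 0.320) was not called.

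Knockdown raised VIM by 0.19 (limma adjusted p = 0.0159) in vehicle. That call was lost after scaling to a common total (0.12, limma adjusted p = 0.0911), without shControl vehicle replicate 2 (0.16, 0.0846) and without shZDHHC8 vehicle replicate 1 (0.12, 0.0938). Under cisplatin the knockdown change was 0.084 (limma adjusted p = 0.196). VIM-AS1, on the other strand, averaged 0.995 to 8.45 FPKM by group.

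CDH2 rose with cisplatin in shControl cells and with knockdown in vehicle. It lies at chr18:27932879-28177946 on the minus strand (hg38, ENSG00000170558). Its FPKM was 21.0 and 21.4 in shControl vehicle, 29.4 and 29.9 in shZDHHC8 vehicle, 28.0 and 26.0 in shControl cisplatin, and 27.7 and 26.9 in shZDHHC8 cisplatin. The untreated shControl libraries were the lowest, and the cisplatin groups overlapped. Cisplatin gave 0.34 ± 0.053 (limma adjusted p = 0.000567) in shControl cells, and −0.12 (limma adjusted p = 0.0982) in shZDHHC8 cells, where median-of-ratios scaling gave a call of −0.27 (limma adjusted p = 0.00246). Knockdown gave 0.47 (limma adjusted p = 0.000129) in vehicle and 0.016 (limma adjusted p = 0.804) under cisplatin. The difference between the cisplatin responses was −0.45 ± 0.075 (limma adjusted p = 0.0031).

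The ratio of CDH2 to EPCAM rose from 3.31 ± 0.0966 in shControl vehicle to 5.92 ± 0.979 in shZDHHC8 vehicle, 7.81 ± 0.413 in shControl cisplatin and 11.1 ± 1.22 in shZDHHC8 cisplatin, and no groups overlapped. The ratio was not tested.

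Other mesenchymal genes were mixed. Of 23 tested, 7 were higher and 13 lower with cisplatin in shControl cells (median −0.28), 8 and 10 with knockdown in vehicle (−0.032), 3 and 13 with cisplatin in shZDHHC8 cells (−0.33) and 8 and 10 with knockdown under cisplatin (−0.15). In those comparisons 62.2%, 51.7%, 50.5% and 61.4% of all tested genes were called, with medians of 0.070, 0.015, 0.13 and 0.042. Median-of-ratios scaling gave 0 and 14 for cisplatin in shZDHHC8 cells (median −0.49), and both scalings gave 5 and 10 for knockdown under cisplatin. S100A4 fell from 532 to 251 FPKM with cisplatin (−1.08, limma adjusted p = 9.48e-07). Fibronectin (FN1) fell with cisplatin (−0.74, limma adjusted p = 2.01e-06) and rose with knockdown (1.44, limma adjusted p = 2.17e-07). The gelatinase MMP2 rose with knockdown from 25.4 to 101 FPKM (1.94, limma adjusted p = 5.78e-08), while the receptor kinase AXL fell (−1.30, limma adjusted p = 3.41e-07).

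Of 16 other tested genes of the cadherin and catenin junction, 10 were lower and 1 higher with cisplatin in shControl cells (median −0.35), and 10 were lower and 3 higher with knockdown in vehicle (median −0.25). Cisplatin in shZDHHC8 cells lowered 9 and raised 1 (median −0.13), with 6 calls without shZDHHC8 vehicle replicate 1 and 6 without shZDHHC8 cisplatin replicate 2, and knockdown under cisplatin lowered 6 and raised 5 (median −0.032). With a common total the last became 8 lower and 3 higher (median −0.12). With median-of-ratios scaling the median for cisplatin in shZDHHC8 cells became −0.28. Of all tested genes 25.4%, 25.0%, 13.6% and 27.6% were called lower in these comparisons, and 36.8%, 26.7%, 36.9% and 33.8% higher. The medians of all tested genes were 0.070, 0.015, 0.13 and 0.042. β-catenin (CTNNB1), which binds the tails of CDH1 and CDH2 and carries WNT signals, averaged 57.9 FPKM in shControl vehicle, 52.7 FPKM in shZDHHC8 vehicle, 41.3 FPKM in shControl cisplatin and 47.9 FPKM in shZDHHC8 cisplatin. Its transcript fell with cisplatin in shControl cells (−0.48, limma adjusted p = 3.94e-05). Knockdown under cisplatin raised it (0.21, limma adjusted p = 0.0048), a call lost with a common total. The difference between its cisplatin responses was 0.34 (limma adjusted p = 0.00676). Knockdown in vehicle gave −0.13 (limma adjusted p = 0.0456), called under 4 of 15 alternatives. Cisplatin in shZDHHC8 cells gave −0.14 (limma adjusted p = 0.0432), called under 5 of 15. The kidney cadherin CDH6 fell further with cisplatin in shControl cells (−1.59, limma adjusted p = 1.98e-07), the opposite direction to CDH2.

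SNAI1 was low and responded to cisplatin in knockdown cells. It lies at chr20:49982980-49988886 on the plus strand (hg38, ENSG00000124216). Its FPKM was 1.81 and 2.16 in shControl vehicle, 0.648 and 0.634 in shZDHHC8 vehicle, 2.34 and 2.26 in shControl cisplatin, and 4.03 and 4.42 in shZDHHC8 cisplatin, and no groups overlapped. Cisplatin gave 0.15 ± 0.092 (limma adjusted p = 0.196) in shControl cells and 1.67 (limma adjusted p = 8.23e-06) in shZDHHC8 cells, a ratio of 6.59. Knockdown changed it by −0.86 (limma adjusted p = 9.32e-05) in vehicle and by 0.66 (limma adjusted p = 0.000298) under cisplatin. The difference between the cisplatin responses was 1.52 ± 0.13 (limma adjusted p = 0.000173). In shZDHHC8 cisplatin SNAI1 stood above EPCAM, the reverse of the other groups.

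**Figure D4:**
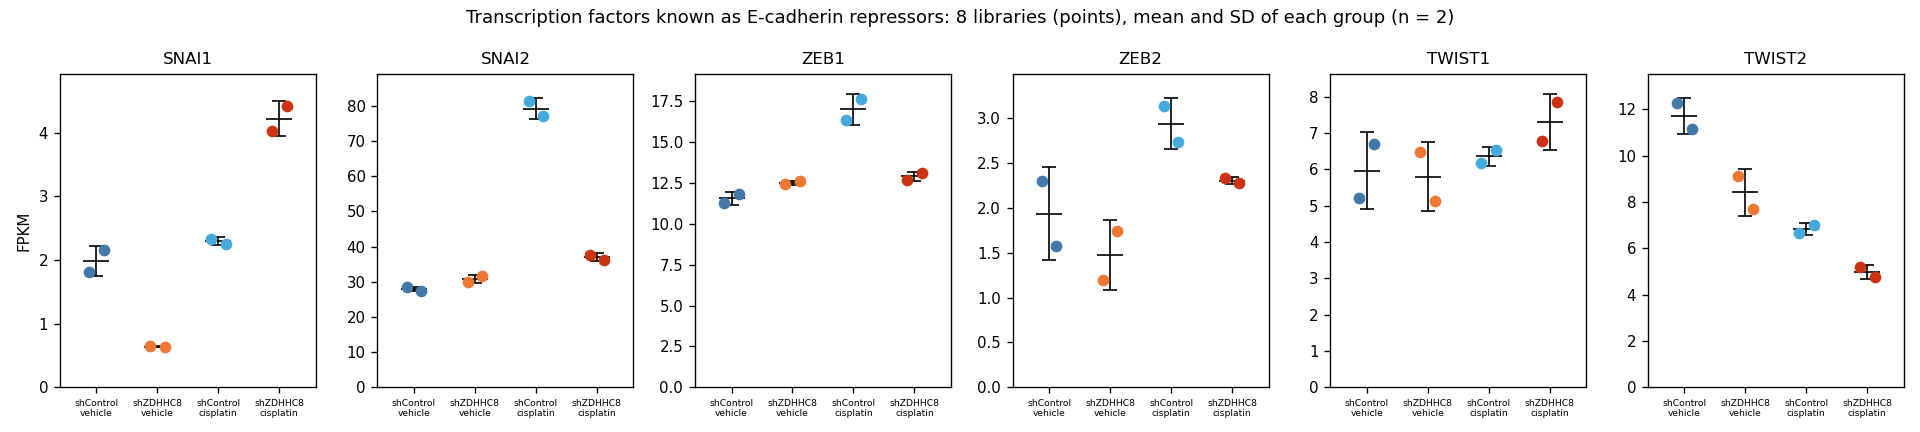
FPKM of SNAI1, SNAI2, ZEB1, ZEB2, TWIST1 and TWIST2 in the 8 libraries; points are libraries, horizontal lines are means and error bars SD (n = 2). SNAI1 is highest in shZDHHC8 cisplatin at 4.22 FPKM and SNAI2 in shControl cisplatin at 79.2 FPKM.

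Its paralog SNAI2 (Slug) moved otherwise. SNAI2 rose from 28.0 to 79.2 FPKM with cisplatin in shControl cells (1.47, limma adjusted p = 2.26e-07), and by 0.26 (limma adjusted p = 0.00353) in shZDHHC8 cells, a call lost after median-of-ratios scaling (largest limma adjusted p over the alternatives 0.0885). The difference was −1.21 (limma adjusted p = 4.21e-05), opposite in sign to that of SNAI1. ZEB1 rose with cisplatin in shControl cells (0.52, limma adjusted p = 8.28e-05) and had 0.041 (limma adjusted p = 0.590) in shZDHHC8 cells. SNAI1 was thus the lower of the pair by level in every group, and CDH1 stayed under 0.4 FPKM throughout.

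Of 19 other tested E-cadherin repressors and their cofactors, 12 were lower and 1 higher with knockdown in vehicle (median −0.32), and 11 lower and 1 higher with knockdown under cisplatin (median −0.39). Cisplatin raised 7 and lowered 6 in shControl cells (median 0.087, or −0.013 after median-of-ratios scaling, with 6 and 7). In shZDHHC8 cells it raised 4 and lowered 3 (median 0.12, or −0.025 after that scaling, with 0 and 5), and 4 calls were left without shZDHHC8 cisplatin replicate 1. Of all tested genes 25.0% were called lower and 26.7% higher with knockdown in vehicle, and 27.6% and 33.8% with knockdown under cisplatin. With cisplatin 36.8% were called higher and 25.4% lower in shControl cells, and 36.9% and 13.6% in shZDHHC8 cells. The medians of all tested genes were 0.015, 0.042, 0.070 and 0.13 in that order. The knockdown direction of SNAI1 in vehicle was shared by most of the repressor list, and its direction under cisplatin was not.

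**Figure D5:**
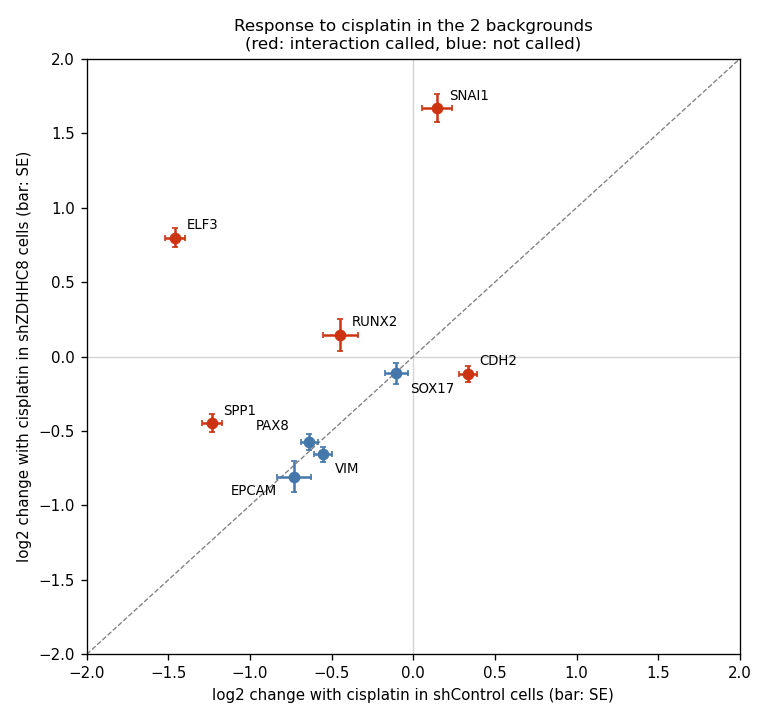
Cisplatin log2 change in shZDHHC8 cells against that in shControl cells for the 9 tested genes, with standard errors, both in units of log2(FPKM + 1); the dashed line is equal response, and red marks a called interaction. ELF3 (−1.46 and 0.80) and SNAI1 (0.15 and 1.67) lie farthest from the line of equal response, and PAX8 and EPCAM lie near it.

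Over the 9 tested genes, the interaction was called for ELF3, SNAI1, SPP1, RUNX2 and CDH2. PAX8, SOX17, VIM and EPCAM gave differences of 0.062, −0.0074, −0.10 and −0.076, with limma adjusted p of 0.549, 0.964, 0.320 and 0.723. Their standard errors were 0.073, 0.099, 0.074 and 0.14. The VIM difference was larger than its standard error and still was not called. Differences above the standard error could thus also not be told from none.

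For each tested gene, up to 3 genes with the most similar pattern over the 8 libraries are given by Pearson's r of log2(FPKM + 1), among 5965 eligible genes. The 8 libraries fall into 4 groups, so r is a description of the group pattern. PAX8 was followed by FAM20C (0.995), TWIST2 (0.993) and EHMT2 (0.993), SPP1 by RRAGA (0.999), AKR1C3 (0.996) and PPIB (0.996), and CDH2 by ETV5 (0.984) and DCBLD2 (0.982) among others. VIM was nearest to COL5A1 (0.992), XXYLT1 (0.990) and NIBAN2 (0.989), and EPCAM to FLNA (0.988), LIMD2 (0.988) and TWIST2 (0.983). TWIST2 appears for both PAX8 and EPCAM, whose own r was 0.980.

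The nearest genes to ELF3 were NUMBL (0.974), RFX5 (0.971) and STMN1 (0.967), and to SNAI1 they were HELZ2 (0.974), IP6K2 (0.967) and HECA (0.966). SOX17 was nearest to PIK3R2 (0.971) and RPS15 (0.970), and RUNX2 to TIRAP (0.920), MAP3K6 (0.906) and ZNF852 (0.890). RUNX2 had the lowest leading r of the set, and it is also the gene whose calls depended most on single libraries.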

How the data were processed

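Poly(A)-selected RNA of 8 libraries was measured, and the authors deposited a single table of gene values on hg38, per the labels. The table names no unit and its values were taken as FPKM as deposited: they are not whole numbers, and column totals differ. No aligner, quantifier or annotation release is given in the sources used here. Depth is unknown: a search among 1808 to 2036 low non-coding genes per group found no shared step, the commonest replicate ratio being held by 5 to 8 genes.

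With limma 3.58.1 in R 4.3.3, lmFit with a mean per group and eBayes with an intensity trend were applied to log2(FPKM + 1) of 13495 genes (residual df 4, prior df 4.64; median SE 0.079, interaction 0.11). Contrasts were the 2 cisplatin, the 2 knockdown and the interaction comparisons, with Benjamini-Hochberg adjustment over all tested genes. The method was tested on simulated data. List counts exclude the 10 genes themselves and are descriptive. The members and gene lists were chosen with earlier results of these data known. The genes named are the 10 members, ZDHHC8, CTNNB1, the defining markers of each list, up to 4 called list genes of smallest p per comparison, and the 3 nearest patterns; others were chosen after their values were seen. Genes the table does not match are not analysed here, and a few genes the rule names are not reported here.

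The alternatives were a pseudocount of 0.1, no filter, a common total, median-of-ratios scaling, no trend, the 4 libraries of a comparison alone, a replicate block, and each library left out in turn. Promoters are RefSeq's, GRCh38.p14.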

Additional observations from a re-analysis of the deposited data

Results flagged for a closer look

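By limma's interaction term, the cisplatin response differed between shControl and shZDHHC8 cells for 5 of the 9 tested lineage genes. It differed for 30.4% of all tested genes. The term draws on the shControl vehicle libraries whose levels chose the genes, so nothing is read from the excess. On the log2 scale the difference, shZDHHC8 minus shControl, was 2.26 for ELF3 and 1.52 for SNAI1. ELF3 fell with cisplatin in shControl cells and rose in shZDHHC8 cells, while SNAI1 rose in shZDHHC8 cells. For SPP1 it was 0.79, and cisplatin lowered the gene in both kinds of cell. For CDH2 it was −0.45, with the rise seen in shControl cells. RUNX2 gave 0.59, a call lost on leaving out any of 4 single libraries. Of the many other genes with a called interaction, values are given for SNAI2 (−1.21) and COL1A1 (1.48), and CDH1 gave 0.31 with no filter on low values. The causes were not tested.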

How the results depend on the processing

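The counts of called members kept within 1.5 times of the value reported in all 5 comparisons under all 15 alternatives (14 for the interaction). That range is wide. For knockdown in vehicle, where all 9 were called, it takes in the loss of VIM, RUNX2 and EPCAM with no filter. Without shZDHHC8 vehicle replicate 2 the changes in that comparison were −0.25 for SOX17, −0.23 for RUNX2 and −0.16 for EPCAM. Of the changes of single members, 332 kept direction and call when 1 library was left out, and 19 lost the call, 1 gained it and 8 changed sign. Under the other alternatives the numbers were 287, 13, 3 and 3. None of those that changed sign was called. VIM for knockdown under cisplatin went to −0.012 with a common total. CDH2 there went to −0.077 with a common total and −0.052 with median-of-ratios scaling. With 1 library left out, it lay between −0.035 and 0.067, the SOX17 interaction between −0.10 and 0.089, and the EPCAM interaction between −0.21 and 0.056. The causes were not tested.

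With no filter on low values, the knockdown calls in vehicle of VIM, RUNX2 and EPCAM were lost (limma adjusted p = 0.0892, 0.0769 and 0.0852), and that of RUNX2 under cisplatin (0.0781). Without a trend RUNX2 lost both knockdown calls (limma adjusted p = 0.0553 and 0.0588).

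Replicate numbers did not pair the libraries (correlation of deviations −0.052 to 0.020 over 6 pairs). With the replicate block RUNX2 lost its call for knockdown in vehicle (limma adjusted p = 0.0534) and under cisplatin (0.0565), and no other member's call changed. Low genes, CDH1 above all and SNAI1 in part, are limited by unknown depth, and genes with an overlapping partner by unstated strandedness. Groups of 2 libraries cannot show which library is atypical.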
